A study of Mus musculus with 2 samples.

Results

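The CXC chemokine ligands are small secreted proteins that direct the migration of leucocytes, and 10 of their mouse genes were followed in 4T1, a metastatic mouse mammary carcinoma cell line. The genes were chosen by symbol: Cxcl1, Cxcl2, Cxcl3, Cxcl5, Ppbp, Pf4, Cxcl10, Cxcl12, Cxcl14 and Cxcl16. Of the 10, 9 were measured among 19498 genes, and the expression of Cxcl14 is not analysed here. The study sequenced ribosomal RNA-depleted total RNA from 1 control-treated 4T1 library and 1 library of 4T1 cells exposed to LY500307, a small-molecule estrogen receptor beta agonist. It asked which RNAs differ between the treated and the control cells. The sources used here give no dose, duration or vehicle, and with 1 library per group no difference between cultures can be tested.

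A CXC chemokine carries a pair of cysteines separated by a single residue, and the residues just before that pair divide the family. Ligands with the sequence glutamate, leucine, arginine (ELR) there act through the receptor CXCR2 and attract neutrophils. Ligands without ELR act on other receptors: CXCL10 attracts activated T cells through CXCR3, CXCL12 acts through CXCR4, and CXCL16, made as a membrane protein, binds CXCR6. Many mammary carcinomas secrete ELR ligands, and 4T1 tumours in mice are known for the neutrophils that accompany them.

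The coding sequences divide the genes in this way, and the codons are shown because the grouping below rests on them. In GENCODE M21 transcripts the 3 codons before the first cysteine, in capitals, encode ELR in 5 of the 10 genes, Cxcl1, Cxcl2, Cxcl3, Cxcl5 and Ppbp. The codons of the cysteine pair and of the residue between them follow in lower case. Lines are given for the 9 measured genes.
Cxcl1: GAGCTGCGCtgtcagtgc
Cxcl2: GAACTGCGCtgtcaatgc
Cxcl3: GAGCTGCGCtgtcagtgc
Cxcl5: GAGCTGCGTtgtgtttgc
Ppbp: GAACTGCGCtgcagatgt
Pf4: GATCTTAGCtgtgtgtgt
Cxcl10: ACGGTCCGCtgcaactgc
Cxcl12: AGCTACCGAtgcccctgc
Cxcl16: GCTGGAAGTtgttcttgt
Cxcl1 and Cxcl3 have the same 18 bases here. Over the coding sequence, Cxcl2 and Cxcl3 were the closest pair of the ELR genes, with 269 of 300 aligned bases identical (89.7%), while Cxcl5 and Ppbp shared 50.7%.

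The deposited values behave as read counts divided by a factor per library. Whole reads could be recovered from them, 14541874 in the control and 15104003 in the LY500307 library. Counts below are these reads. A fold is the ratio of the deposited values, LY500307 over control, and its 95% interval is an exact Clopper-Pearson interval that covers counting error only. A floor of 33.0 on the higher deposited value, the 40th percentile of values above 0, left 11384 genes, and 5 of the 9 measured ligands reached it. The epithelial gene Krt8 had 17073 reads in the control and 14450 in the LY500307 library, and Krt18 had 14271 and 12909. Ptprc, which marks leucocytes, had 2 and 4 reads in the control and LY500307 libraries.

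The ELR ligands differed in how far they were apart between the libraries. Cxcl3 was 1.61-fold and Ppbp 1.63-fold higher in the LY500307 library, Cxcl5 was 1.33-fold higher and Cxcl1 1.09-fold, and Cxcl2, below the floor, had too few reads to show a difference. Cxcl16, the ligand without ELR that reached the floor, stood at 0.963 of its control value. Of the 5 ligands that reached the floor, 2 were at least 1.5-fold higher and 0 at least 1.5-fold lower, where 1.80% and 1.97% of all genes that reached the floor were. Counting intervals lay above 1 for 4 of the 5 ligands, against 18.1% of all genes, and below 1 for 0, against 23.7%. On the log2 scale 4 of the 5 lay above 0, against 47.2% of all genes. The median log2 ratio of the 5 was 0.41, and that of all genes above the floor −0.02. These ligands were chosen with these results known, so the counts describe them and are not independent support for a direction.

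**Figure D1:**
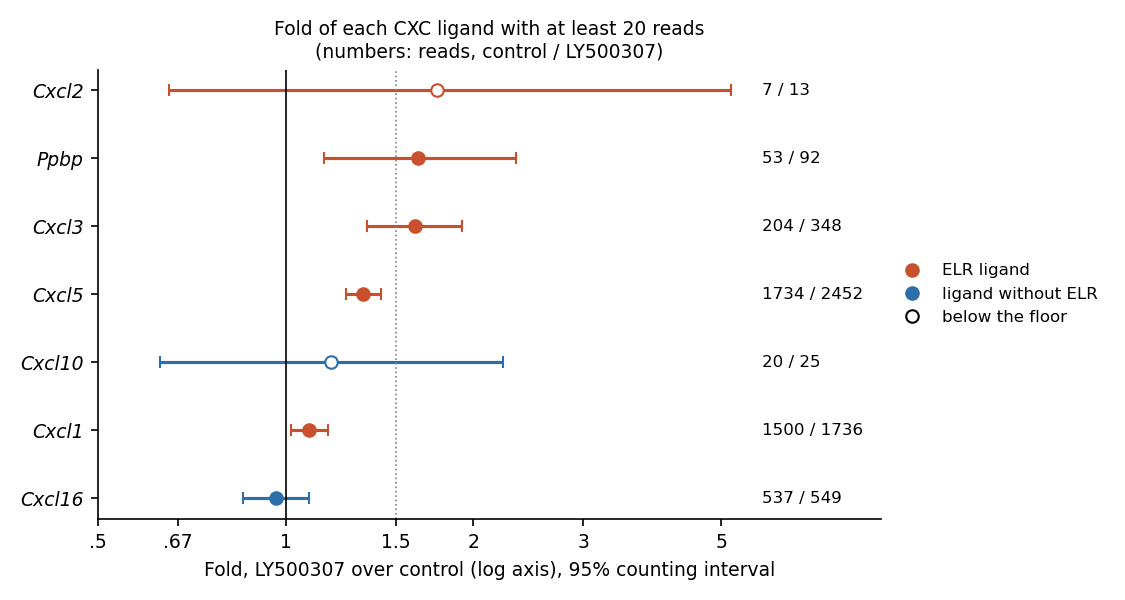
Fold of each CXC ligand with at least 20 reads over both libraries, LY500307 over control, on a log axis with 95% counting intervals; orange marks ELR ligands, blue ligands without ELR, open circles genes below the floor, and the dotted line 1.5-fold. The intervals of Ppbp, Cxcl3, Cxcl5 and Cxcl1 lie above 1, and that of Cxcl16, from 0.853 to 1.09, spans it.

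Cxcl5 (ENSMUSG00000029371) encodes a neutrophil attractant that epithelial cells release during inflammation. It had 1734 reads in the control and 2452 in the LY500307 library, and the treated count was higher. The fold was 1.33 with an interval of 1.25 to 1.42. By log2 ratio Cxcl5 lay above 96.1% of the 11384 genes. Among 1666 genes whose reads over both libraries were within 1.5 times of its own, 3 others were as high or higher. Its log2 ratio of 0.41 was 0.28 with a trend in transcript GC content and length removed, above 92.9% of all genes, and 0.19 with the trend fitted on protein-coding transcripts.

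Cxcl1 (ENSMUSG00000029380), an ELR ligand induced in many cell types by interleukin 1 and tumour necrosis factor, had 1500 reads in the control and 1736 in the LY500307 library. Its fold of 1.09 (1.02 to 1.17) was smaller than those of Cxcl5 and Cxcl3, whose intervals, from values as deposited, did not overlap its own. With the trend fitted on protein-coding transcripts, Cxcl5 was nearer to Cxcl1. The log2 ratios were then 0.06 for Cxcl1, 0.19 for Cxcl5 and 0.58 for Cxcl3. It lay above 73.6% of all genes, well inside the bulk of the distribution, and above 64.4% with the trend removed.

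Cxcl3 (ENSMUSG00000029379) is a close relative of Cxcl1 and Cxcl2 with the same receptor. It had 204 reads in the control and 348 in the LY500307 library, and its fold was 1.61 (1.35 to 1.92). It lay above 98.8% of all genes. Of 2135 genes of like depth, 3 others were as high or higher.

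Cxcl2 (ENSMUSG00000058427), which macrophages and neutrophils make in quantity, had 7 reads in the control and 13 in the LY500307 library and lay below the floor. Its interval, 0.648 to 5.18 around a fold of 1.75, spans 1, so a difference was not detectable at this depth. Cxcl2 and Cxcl3 share 61 stretches of 50 bases, 6.31% of those in the longest protein-coding Cxcl3 transcript, and reads there cannot be assigned by sequence. Their reads summed to 211 in the control and 361 in the LY500307 library, a fold of 1.61 (1.36 to 1.92) that does not depend on how counted reads were divided between the pair. No such stretch of Cxcl1 or Ppbp occurred in a transcript of another gene, and 0.852% of those of Cxcl5 did.

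Ppbp (ENSMUSG00000029372) encodes pro-platelet basic protein, which is cut to an ELR chemokine and is best known from platelets. It had 53 reads in the control and 92 in the LY500307 library, with a fold of 1.63 (1.15 to 2.34). The interval is wide and overlapped those of Cxcl3, Cxcl5 and Cxcl1. Of 1132 genes of like depth, 42 others were as high or higher. Pf4 (ENSMUSG00000029373), platelet factor 4, lies beside Ppbp and has no ELR. It had 1 read in the control and 5 in the LY500307 library, a ratio of 4.69 with an interval of 0.527 to 223, and no difference was detectable.

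Because Ppbp and Pf4 are platelet genes, the markers of megakaryocytes and platelets were read beside them. Of 7 markers, 3 were measured, and together they had 63 reads in the control and 89 in the LY500307 library. The integrin genes Itgb3 and Itga2b had 34 and 36, and 20 and 26 reads. Gp1ba, a subunit of the platelet receptor for von Willebrand factor, had 9 and 27 reads and a fold of 2.82 (1.29 to 6.83), below the floor. The other 4 markers, Gp1bb, Gp9, Gp6 and Treml1, are not analysed here. The part of such cells in the Ppbp value was not tested, and in bulk RNA a change in cell numbers and a change in RNA per cell cannot be told apart.

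Summed over the 5 ELR ligands, reads numbered 3498 in the control and 4641 in the LY500307 library, a fold of 1.25 (1.2 to 1.31). Without Cxcl5 the fold was 1.17 (1.10 to 1.24). The 4 measured ligands without ELR summed to 559 and 580 reads, a fold of 0.977 (0.868 to 1.10), and nearly all of these reads were from Cxcl16.

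Cxcl16 (ENSMUSG00000018920), made as a membrane-bound ligand and released by proteases, had 537 reads in the control and 549 in the LY500307 library, with a fold of 0.963 (0.853 to 1.09). Of the 50-base stretches of its transcript, 19.0% also lie, on the opposite strand, in transcripts of Zmynd15. Zmynd15 had 18 and 23 reads. Whether reads were counted by strand is not given in the sources used here.

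Cxcl10 (ENSMUSG00000034855), a ligand induced by interferon, had 20 reads in the control and 25 in the LY500307 library (fold 1.18, 0.628 to 2.23) and lay below the floor. Cxcl12 (ENSMUSG00000061353), which stromal cells make constitutively, had 1 read in each library. At 1 read per library no fold is given. Among the other CXC ligands, Cxcl9, induced by interferon gamma, had 1 and 8 reads (ratio 7.51, 1.01 to 334) and Cxcl11 had 8 and 4 (ratio 0.470, 0.104 to 1.76), both below the floor. The interferon ligands thus had 25 reads or fewer in any library, and their ratios lay on both sides of 1.

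Per kilobase of the longest annotated transcript, the deposited values in the control library ran in the order Cxcl5, Cxcl1, Cxcl16, Cxcl3, Ppbp, Cxcl10, Cxcl2, Pf4, Cxcl12. The level was 959 per kb for Cxcl5 (counting interval 915 to 1005), 826 for Cxcl1 (785 to 869) and 205 for Cxcl16 (188 to 223). It was 60.1 for Cxcl3 (52.1 to 68.9) and 50.4 for Ppbp (37.8 to 66.0), a ratio of 1.19 (0.877 to 1.64) within counting error at these lengths. Cxcl10 followed at 9.24, Cxcl2 at 3.49, Pf4 at 1.76 and Cxcl12 at 0.184 per kb, with the interval of each overlapping that of the next at these lengths.

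In the LY500307 library the levels per kb were 1277 for Cxcl5 (1227 to 1329), 900 for Cxcl1 (858 to 944), 197 for Cxcl16 (181 to 215), 96.5 for Cxcl3 (86.7 to 107) and 82.4 for Ppbp (66.4 to 101). The first 6 places of the order were as in the control library. Pf4 (8.25 per kb) and Cxcl2 (6.10) exchanged places with overlapping intervals. By level per kb, Cxcl5 lay above 94.2% of genes in the control and 96.1% in the LY500307 library, and Cxcl12 above 5.56% and 3.81%.

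The order depends on the transcript model. For Cxcl1, Cxcl2, Cxcl3, Cxcl5 and Cxcl10 the longest annotated transcript retains an intron, and for Cxcl3 it has 3498 bases against 1016 in the longest protein-coding transcript. With protein-coding lengths Cxcl1 stood first in both libraries, at 1622 per kb in the control (1541 to 1706) and 1768 in the LY500307 library (1685 to 1853). Cxcl5 then stood at 1135 (1082 to 1189) and 1511 (1451 to 1572). Cxcl3 came to 207 (180 to 237) in the control library, not distinguishable from Cxcl16 at 205 (188 to 223), and to 332 (298 to 369) in the LY500307 library, above Cxcl16 at 197 (181 to 215). Cxcl3 then stood 4.10-fold above Ppbp in the control library (3.02 to 5.66) and 4.03-fold in the LY500307 library (3.20 to 5.13), where the longest transcripts gave no separation. In the control library Cxcl10, at 15.2 per kb (9.31 to 23.5), then also separated from Cxcl2 at 3.88 (1.56 to 8.0). Which of Cxcl1 and Cxcl5 has the higher level, and whether Cxcl3 exceeds Ppbp, is therefore not settled by these data.

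**Figure D2:**
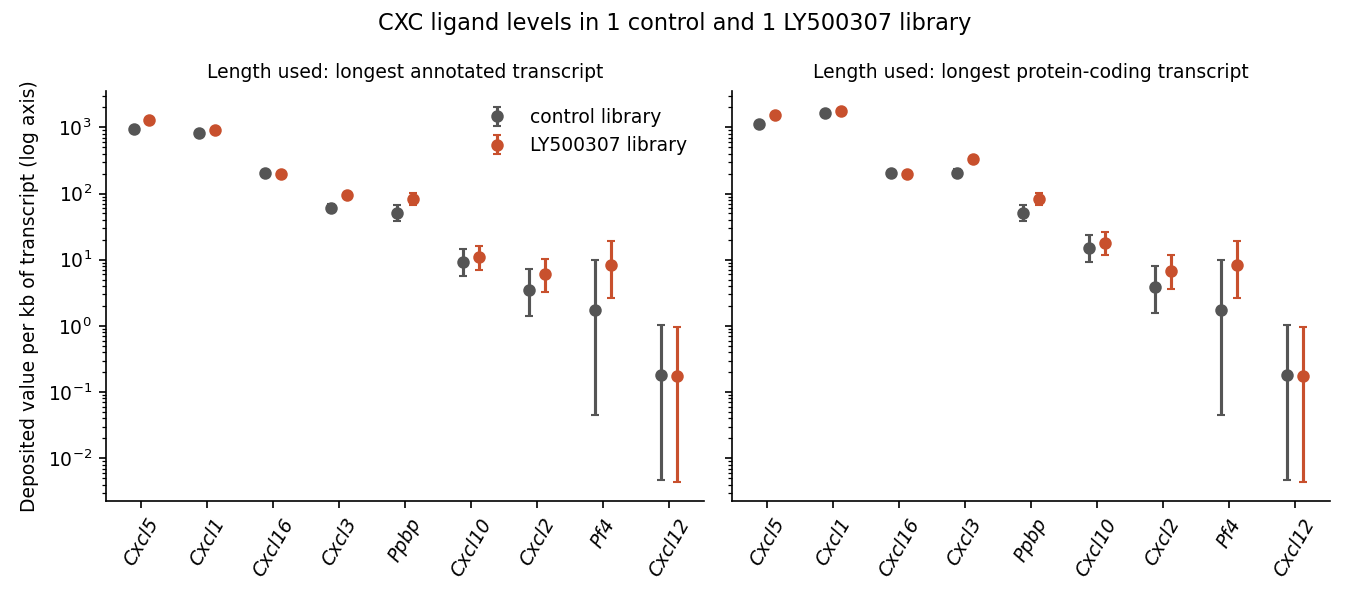
Deposited value per kb of transcript (log axis) for each measured CXC ligand in the control (grey) and LY500307 (orange) library, with exact Poisson 95% counting intervals, using the longest annotated transcript (left) or the longest protein-coding transcript (right). Cxcl5 stands above Cxcl1 on the left, 959 against 826 in the control library, and below it on the right, 1135 against 1622.

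Shares of the summed level and ratios within a library were computed with both lengths. Cxcl5 and Cxcl1 together made up 84.4% of the summed per-kb level of the 9 ligands in each library with the longest transcripts, and 85.1% and 83.6% with protein-coding lengths. The share of Cxcl1 was 39.1% in the control and 34.9% in the LY500307 library with the longest transcripts, and 50.1% and 45.1% with protein-coding lengths. The per-kb ratio of Cxcl1 to Cxcl3, which a length choice shifts equally in both libraries, went from 13.7 (11.9 to 16.0) in the control to 9.33 (8.31 to 10.5) in the LY500307 library with the longest transcripts, and from 7.84 (6.77 to 9.12) to 5.32 (4.74 to 5.98) with protein-coding lengths. Cxcl2 stayed far below its paralog Cxcl3 in each library, with per-kb ratios of Cxcl3 to Cxcl2 of 17.2 (8.20 to 43.4) and 15.8 (9.12 to 30.0) with the longest transcripts, and of 53.3 (25.4 to 134) and 49.0 (28.3 to 92.9) with protein-coding lengths.

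Over the 11384 genes the log2 ratio followed transcript GC content, with a Spearman correlation of −0.59 (a description across genes, which share the 2 libraries). Ranked by GC content, the lowest 1135 nuclear genes had a median log2 ratio of 0.18 and the highest 1135 one of −0.29. The ELR ligands at or above the floor lie toward the low end, at 41.3% GC for Cxcl5, 42.4% for Ppbp, 42.9% for Cxcl3 and 44.6% for Cxcl1, against 49.8% for Cxcl16 and a median of 49.6% over all genes. After removal of a trend in GC content and length, log2 ratios went from 0.70 to 0.59 for Ppbp, from 0.68 to 0.56 for Cxcl3, from 0.41 to 0.28 for Cxcl5, from 0.12 to 0.04 for Cxcl1 and from −0.05 to −0.04 for Cxcl16. Only the value of Cxcl5 among these 5 left its counting interval. Cxcl3 then fell short of 1.5-fold, so that 1 of the 5 ligands was at least 1.5-fold higher, against 1.76% of all genes. The same 4 ligands lay above 0, against 46.4% of all genes, and Cxcl3 and Ppbp lay above 98.0% and 98.3% of all genes.

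**Figure D3:**
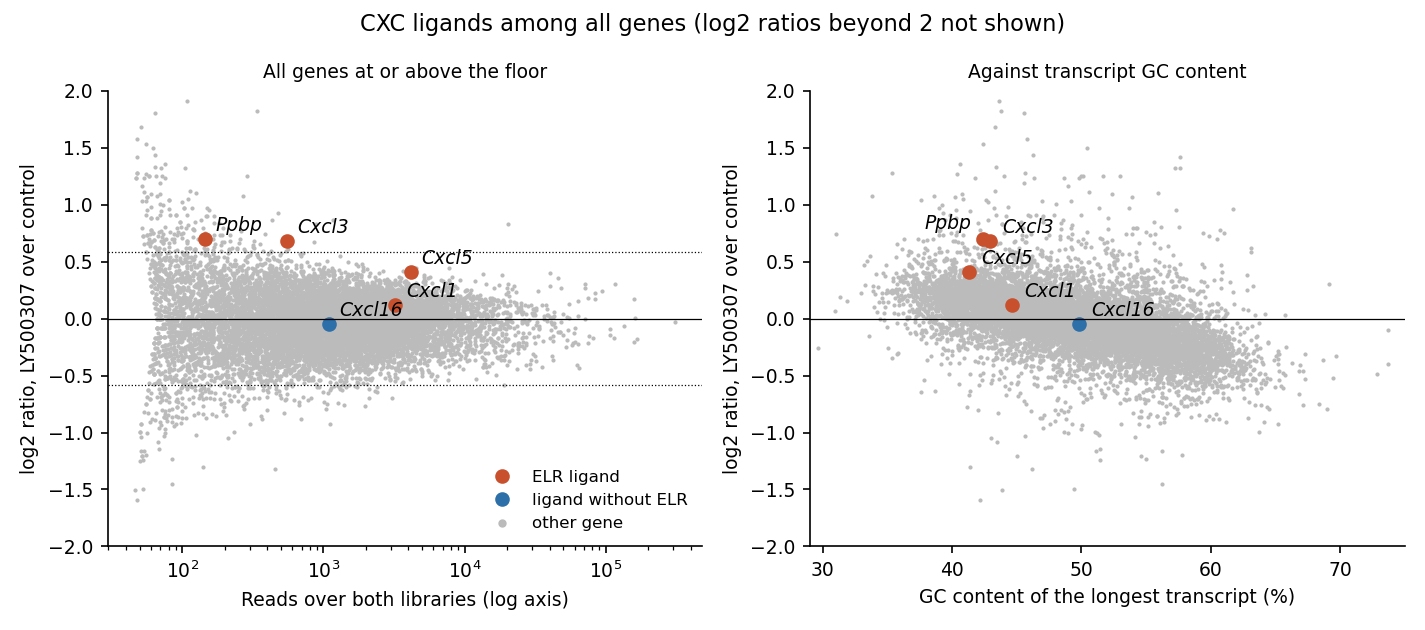
The log2 ratio of every gene at or above the floor (grey) against reads over both libraries on a log axis (left) and against the GC content of its longest transcript (right), with CXC ligands in orange (ELR) and blue (without ELR) and dotted lines at 1.5-fold. Cxcl3 and Cxcl5, at 0.68 and 0.41, each lie above 99.8% of genes of like depth, and Ppbp, at 0.70, above 96.2%. All 4 ELR ligands lie among GC-poor transcripts, where ratios run higher.

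All 5 ELR genes and Pf4 lie in a single cluster on chromosome 5, where gene duplication placed chemokine genes side by side, so the genes flanking it were read with them. The window from 5 protein-coding genes before to 5 after the cluster held Afp, Rassf6, Mthfd2l, Areg and Btc at or above the floor. Rassf6, next to Cxcl5, had 364 and 398 reads and a fold of 1.03 (0.891 to 1.19). Mthfd2l, next to Cxcl2 on the other side, had 470 and 490 reads and a fold of 0.982 (0.863 to 1.12). Areg, which encodes the growth factor amphiregulin, had 497 and 530 reads and a fold of 1.0 (0.887 to 1.14). Btc, which encodes the growth factor betacellulin, had 40 and 69 reads and a fold of 1.62 (1.08 to 2.46), while Afp had 65 and 95 (1.38, 0.993 to 1.92). The intervals of the immediate neighbours on both sides thus span 1, and those of Cxcl5 and Cxcl3 did not overlap them. The interval of Cxcl1 overlapped those of both neighbours, and that of Ppbp overlapped that of Rassf6. Btc, farther out, had a fold like those of Ppbp and Cxcl3.

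**Figure D4:**
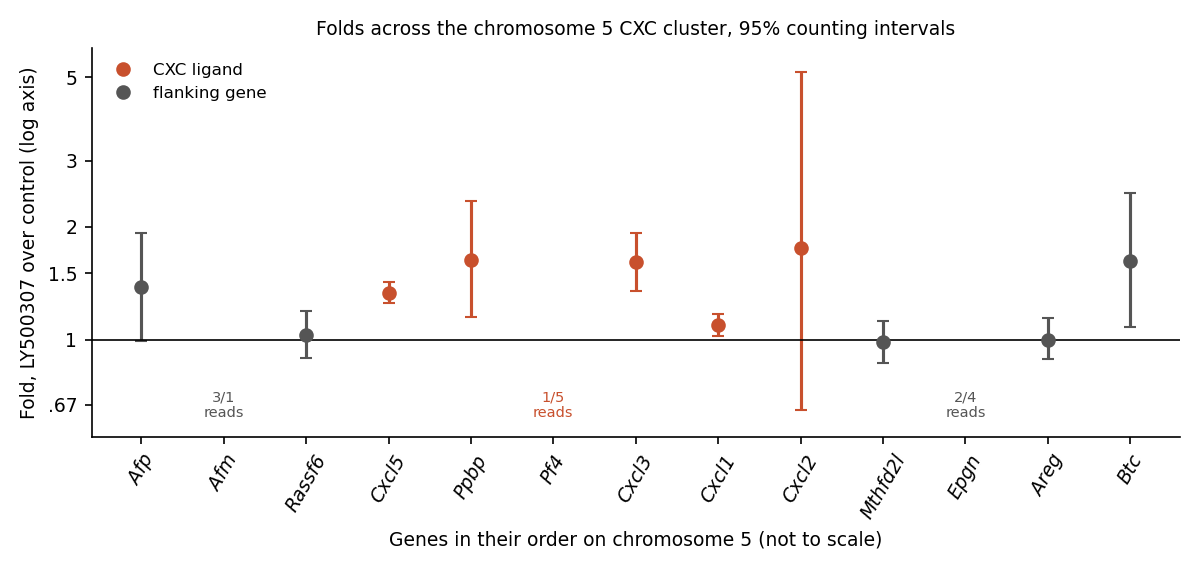
Fold, LY500307 over control, on a log axis with 95% counting intervals for measured genes in their order along chromosome 5, with CXC ligands in orange and flanking genes in grey; genes with fewer than 20 reads are given by their reads. The folds of Cxcl5, Ppbp and Cxcl3 lie between 1.33 and 1.63 and that of Cxcl1 at 1.09, while among flanking genes Rassf6, Mthfd2l and Areg lie between 0.982 and 1.03, Afp at 1.38 and Btc at 1.62.

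The promoters of Cxcl1, Cxcl2 and Cxcl3 are printed because they share a match to the kappaB consensus, the letters read by NF-kB. That of Ppbp is printed because its fold was near that of Cxcl3. The part of these letters in the folds was not tested. Each line holds the 150 bases before the transcription start from RefSeq on GRCm38.p6, plus strand, with matches to the kappaB consensus and to TATAAA in capitals.
Cxcl1, chr5:90891095-90891244: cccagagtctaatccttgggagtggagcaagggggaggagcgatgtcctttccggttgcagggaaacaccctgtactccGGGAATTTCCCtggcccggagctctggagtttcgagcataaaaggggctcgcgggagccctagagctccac
Cxcl2, chr5:90903749-90903898: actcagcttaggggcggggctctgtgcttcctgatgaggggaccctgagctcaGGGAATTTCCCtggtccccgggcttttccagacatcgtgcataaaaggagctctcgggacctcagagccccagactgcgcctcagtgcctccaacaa
Cxcl3, chr5:90785951-90786100: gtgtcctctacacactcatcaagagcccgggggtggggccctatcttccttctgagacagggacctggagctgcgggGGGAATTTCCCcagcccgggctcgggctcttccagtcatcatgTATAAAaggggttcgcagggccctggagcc
Ppbp, chr5:90768368-90768517: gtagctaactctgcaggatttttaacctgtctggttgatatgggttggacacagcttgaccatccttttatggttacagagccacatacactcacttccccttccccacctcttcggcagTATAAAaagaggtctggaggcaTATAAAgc
Cxcl1, Cxcl2 and Cxcl3 hold the same 11 letters, GGGAATTTCCC, made of overlapping kappaB matches that begin 71, 97 and 73 bases before the start.

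Promoter sequence was matched for 8 of the 10 genes, and the 250 bases before the start were searched on both strands. Cxcl5 and Cxcl16 had no promoter sequence in the source used here and were not searched. The kappaB consensus was found in 4 of the 8, the fourth being Cxcl10, where 7.01% of 27025 promoters held it. TATAAA was found in Cxcl3 and Ppbp, against 13.0% of all promoters. GGTCA, the core of an estrogen response element, was found in Ppbp, Cxcl10 and Cxcl14, against 34.9%, and TGANTCA, the AP-1 site, in Ppbp and Cxcl10, against 6.87%. TTGCNNAA, read by C/EBP factors, was found in Pf4, against 9.55%, and TTCNNNGAA, read by STAT factors, in Cxcl14, against 7.18%. A match describes letters in a window and is no sign of binding.

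Transcripts of Cxcl1, Cxcl2 and Cxcl3 are known to be short-lived through AU-rich elements in the 3′ untranslated region, which contain the pentamer ATTTA in DNA letters. The longest protein-coding transcript held 7 copies for Cxcl1 (11.8 per kb), 11 for Cxcl2 (7.36 per kb) and 5 for Cxcl3 (7.75 per kb), against a median of 1.25 per kb over 14056 genes. These densities exceeded those of 99.5%, 97.7% and 98.1% of genes. Cxcl5 held 5 copies (4.50 per kb), Ppbp 1 (1.52 per kb) and Cxcl16 2 (1.41 per kb). Pf4 held 1 copy in 123 bases (8.13 per kb), a density above that of 98.4% of genes. Cxcl10 held 3 copies (3.01 per kb) and Cxcl12 4 (0.771 per kb). The part of AU-rich elements in the folds was not tested.

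Genes that make, sense or dispose of these ligands were read from further lists. Their counts past 1.5-fold are set against the 1.80% (higher) and 1.97% (lower) of genes in the whole table that passed the same filter. Of 8 CXC receptors, 2 reached the floor. Ackr3, which scavenges CXCL12, had 785 and 852 reads (fold 1.02, 0.926 to 1.13). Cxcr3, the receptor of CXCL10, had 42 and 56 reads (1.26, 0.826 to 1.92). Cxcr2, the receptor of the ELR ligands, had 3 and 1 reads, Cxcr6, that of CXCL16, had 6 and 1, and Ackr1 had 2 and 3, so that none of these could be compared. Cxcr1, Cxcr4 and Cxcr5 are not analysed here. ELR ligands thus had 3498 and 4641 reads in libraries where their receptor gene Cxcr2 had 3 and 1.

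Chemokines of other families had 2 members at or above the floor. Of 22 ligands of the CC, CX3C and XC families looked for, 11 were measured, and 0 of the 2 were at least 1.5-fold apart. Cx3cl1, a membrane-bound ligand, had 436 and 422 reads (0.911, 0.795 to 1.04), and Ccl25 had 112 and 133 (1.12, 0.863 to 1.45). The other 9 lay below the floor with 19 reads or fewer in any library. Among them Ccl20 had 16 and 10 reads and the monocyte attractant Ccl2 15 and 9, while Ccl6 had 12 and 19, Ccl5 3 and 9 and Ccl17 2 and 7, and the counting interval of each spanned 1. Reads of the 11 summed to 602 in the control and 621 in the LY500307 library.

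Among proteases that shed or trim CXC ligands, 4 of 10 reached the floor, with a median log2 ratio of 0.00 and 0 members at least 1.5-fold apart. Adam10 and Adam17, which release CXCL16 from the membrane, had 1939 and 2148 reads (1.04, 0.980 to 1.11) and 1287 and 1537 reads (1.12, 1.04 to 1.21). Mmp14 had 1322 and 1342 reads (0.956, 0.885 to 1.03). The 11 heparan sulfate proteoglycans and enzymes, which hold secreted chemokines at cell surfaces, had a median of −0.11 and 0 members 1.5-fold apart. Gpc1 stood at 0.825 (0.789 to 0.862), Sdc4 at 1.01 (0.962 to 1.06) and Sdc1 at 0.897 (0.852 to 0.945) of the control value. With the trend in GC content and length removed, the median of the 11 was −0.01. The log2 ratios were then −0.04 for Gpc1, 0.02 for Sdc4 and −0.01 for Sdc1.

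Of 13 inducing cytokines, receptors and adaptors at or above the floor, 1 was at least 1.5-fold higher, 0 were 1.5-fold lower, against 1.80% and 1.97% of all genes, and 8 lay above 0, against 47.2%. The median log2 ratio was 0.14. Intervals lay above 1 for 6, against 18.1% of all genes, and below 1 for 2, against 23.7%. With the trend in GC content and length removed, 9 lay above 0, against 46.4% of all genes, and the median was 0.05. The gene at least 1.5-fold higher was Il1b, which encodes interleukin 1 beta, an inducer of ELR ligands. Il1b had 21 and 54 reads and a fold of 2.42 (1.44 to 4.22). Its control value of 21.6 is below the floor, which it reached only through the LY500307 library, so its place among the counted genes is in part set by the filter. Irak1, a kinase of the interleukin 1 receptor, had 1787 and 1865 reads (0.983, 0.920 to 1.05), Il1a 610 and 763 (1.18, 1.06 to 1.31) and Traf6, an adaptor, 560 and 622 (1.05, 0.931 to 1.17).

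NF-kB proteins drive transcription of many ELR ligand genes. Of 13 subunits, kinases and inhibitors at or above the floor, 5 lay above 0, against 47.2% of all genes, 0 were at least 1.5-fold apart and the median log2 ratio was −0.10. Intervals lay below 1 for 5, against 23.7% of all genes, and above 1 for 1, against 18.1%. The gene with its interval above 1 was Chuk, which encodes an IkappaB kinase subunit, with 1083 and 1537 reads and a fold of 1.34 (1.24 to 1.45), near that of Cxcl5. Nfkb2 stood at 0.776 (0.739 to 0.815), Nfkb1 at 0.975 (0.917 to 1.04) and Rela at 0.783 (0.733 to 0.836) of the control value. The other intervals below 1 were those of Nfkbia at 0.733 (0.669 to 0.803), Relb at 0.726 (0.627 to 0.840) and Nfkbib at 0.751 (0.650 to 0.866). With the trend in GC content and length removed, 2 of the 13 lay above 0, against 46.4% of all genes, and the median was −0.08. The log2 ratio of Chuk went from 0.42 to 0.27, that of Nfkb2 went from −0.36 to −0.11 and that of Rela from −0.35 to −0.08. For Nfkbia it went from −0.45 to −0.35, for Relb from −0.46 to −0.27 and for Nfkbib from −0.41 to −0.15.

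Of 9 genes of proteins that control mRNA stability, most of which bind AU-rich elements, 1 was at least 1.5-fold lower, against 1.97% of all genes, and 0 were higher, against 1.80%. The median log2 ratio was −0.11. The lower gene was Zc3h12a, whose product is an RNase that degrades cytokine mRNAs at stem-loops rather than at AU-rich elements, and none of the other 8 genes was 1.5-fold apart. Zc3h12a had 547 and 382 reads and stood at 0.658 of the control value (0.575 to 0.751). Zfp36l2 stood at 0.776 (0.754 to 0.798), Khsrp at 0.818 (0.787 to 0.850) and Hnrnpd at 1.05 (1.01 to 1.09). Zfp36 had 243 and 185 reads and stood at 0.717 (0.589 to 0.871). Intervals lay below 1 for 4 of the 9, against 23.7% of all genes, and above 1 for 2, against 18.1%. With the trend removed Zc3h12a had a log2 ratio of −0.40, short of 1.5-fold, and Zfp36 one of −0.36. Of the 9, 0 then lay above 0, against 46.4% of all genes, and the median was −0.12. The 12 interferon signalling genes had a median of 0.00, with 6 above 0, against 47.2% of all genes, and 0 at least 1.5-fold apart. Their 3 most abundant members, Jak1, Ifnar1 and Jak2, had folds of 1.02, 1.01 and 1.14, with intervals of 0.959 to 1.08, 0.907 to 1.12 and 1.03 to 1.26.

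**Figure D5:**
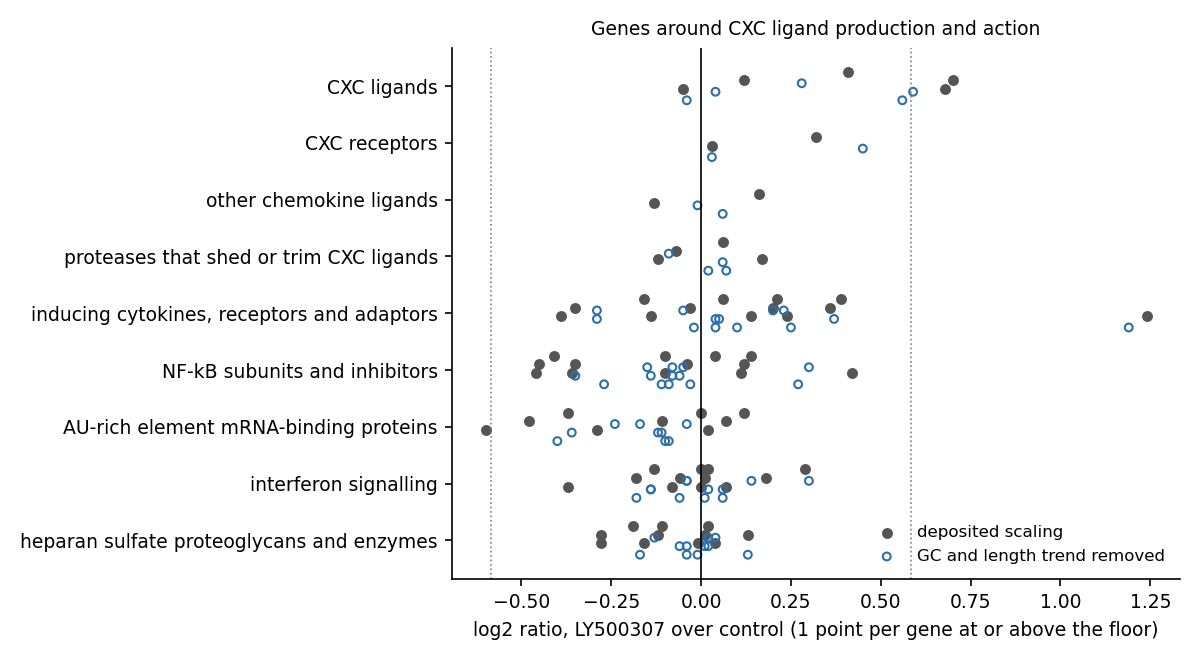
The log2 ratio, LY500307 over control, of each gene at or above the floor in the CXC ligands and the pathway lists read beside them, as deposited (filled) and with the trend in GC content and length removed (open), with dotted lines at 1.5-fold. Il1b at 1.24, Ppbp at 0.70 and Cxcl3 at 0.68 lie beyond the upper line, and Zc3h12a at −0.60 beyond the lower.

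Myeloid cells are another source of ELR ligands, and their markers were read in both libraries. Of 10 myeloid markers, 8 were measured, with 184 reads in the control and 217 in the LY500307 library. Cd14 had 85 and 100 reads (1.11, 0.821 to 1.5) and Cd68 81 and 102 (1.19, 0.877 to 1.61). The more restricted markers were at or near 0: Csf1r had 2 and 1 reads, Itgam 1 and 1, and Lyz2 8 and 2. The neutrophil genes S100a8 and S100a9 had 4 and 6 and 1 and 1 reads. Fibroblast markers summed to 354 and 367 reads, of which Pdgfra had 271 and 285, and the other fibroblast markers lay below the floor. Endothelial markers summed to 12 and 19 reads. Of 6 lymphoid markers, 1 was measured, Cd79a, with 2 and 1 reads. Of 5 measured epithelial markers, Krt8 stood at 0.797 (0.779 to 0.815) and Krt18 at 0.852 (0.832 to 0.872) of the control value, Epcam at 0.979 (0.923 to 1.04) and Cdh1 at 1.08 (1.04 to 1.12). Krt14, a keratin of basal epithelial cells, had 28 and 76 reads and a fold of 2.56 (1.64 to 4.09), with a control value of 28.9, below the floor. With the trend removed the log2 ratios were −0.12 for Krt8, −0.04 for Krt18 and 1.54 for Krt14. The part of these differences in the ligand values was not tested.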

How the data were processed

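RNA-seq of 4T1 cells was compared between 1 control and 1 LY500307 library, grouped by the treatment label. The deposited signal per gene was made by the authors from read counts rescaled by a factor per library, as the values show. CASAVA 1.8, Bowtie2 and mm9 are named in the submitters' processing notes, without roles. The counter and annotation, like the tool for normalization, were not given in the sources used here. Division by the steps 1.03059 and 0.970322 gave whole reads within 0.01 for 99.95% and 99.96% of values. With 1 library per group no count test can be fitted, and no count of genes called by one is given.

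The log2 ratio used a pseudocount of 1.03, which is the 5th percentile of nonzero values, and so understates differences of low genes. The intervals cover counting error only, because 1 library per group shows no spread between cultures. The labels name no molecular identifiers, so amplification copies cannot be told from separate molecules, and the intervals may be too narrow. Symbols, lengths and GC content came from GENCODE M21, and 19443 of 19498 IDs matched. The trend was a robust regression on splines (statsmodels 0.14.6). Functions were tested on simulated data.

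All measured ligands and CXC receptors were named, and of other lists the genes past 1.5-fold and up to 3 with the highest values. Chuk, Nfkbia, Relb, Nfkbib, Zfp36, the CC ligands below the floor, the overlapping gene and the cell markers were named with values in view. Patterns were not ranked by likeness, since 2 libraries give 1 ratio per gene. The ligands and lists were chosen with earlier results of these data known.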

Additional observations from a re-analysis of the deposited data

How the results depend on the processing

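The count of 2 ligands at least 1.5-fold higher was the same with a pseudocount of 5 or 0, CPM of recovered reads, median centring and a floor of 50, and 3 at 1.2-fold. It was 1 with the GC and length trend removed, also with protein-coding transcripts (an added setting), 0 at 2-fold, and 4 with no floor, which adds genes with few reads. The count lower was 0 under each. The median log2 ratio of 0.41 became 0.44 with CPM, 0.43 with centring, and 0.28 or, with protein-coding transcripts, 0.19 with the trend removed; the cause was not tested. Of 9 ligands, 5 kept their place in the per-kb order in each library with the shortest or longest protein-coding transcript, and 9 with the union of exons. No paired analysis was possible because each group has 1 library, and no library could be left out. Depth limits Cxcl2, Pf4, Cxcl10 and Cxcl12, at 25 reads or fewer. Protein-coding lengths and a pseudocount of 0 were chosen after seeing the data.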
